A study of Mus musculus with 6 samples.

Results

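The 10 genes described here encode transcription factors that set up or maintain the identity of the retinal pigment epithelium (RPE), the pigmented layer behind the photoreceptors: Mitf, Tfec, Otx2, Otx1, Sox9, Lhx2, Pax6, Six3, Rax and Tfap2a. They were chosen by symbol from a table of 54532 genes, all 10 were in it, and all 10 passed the filter on low counts that left 17340 genes for testing. RPE RNA was sequenced from 3 wild-type (WT) mice of the strain 129S1/SvlmJ and from 3 Abca4-/- mice (Abca4KO) of the Jackson line with the Abca4tm1Ght allele, 1 library per mouse, all sampled 5 h after light onset. Mice of both genotypes carried the Leu450 form of Rpe65 and were kept under cyclic light on a standard diet, and their ages are not given in the sources used here. Because the Abca4KO mice come from a line of their own, the line and the genotype cannot be told apart. The comparison asks whether the transcripts of these factors differ in the RPE of mice that lack the retinoid transporter Abca4.

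RPE and neural retina arise from the same optic vesicle. MITF, a basic helix-loop-helix leucine zipper factor, and OTX2, a homeodomain factor, specify the pigmented side and switch on the genes of melanin synthesis, and MITF also does so in melanocytes. SOX9 and LHX2 act with OTX2 on visual cycle genes of the mature RPE. PAX6, SIX3, RAX and LHX2 belong to the early eye field, and several of the 10 genes are also used by other cells of the eye: OTX2 by photoreceptors and bipolar cells, PAX6 by amacrine, ganglion, ciliary and iris cells, SOX9 and LHX2 by Muller glia, TFEC by macrophages, and TFAP2A by amacrine cells, surface epithelium and neural crest derivatives.

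Total counts were between 17047286 and 19841307 per library. Abca4 itself had 954, 930 and 966 CPM (the count scaled to a common library size) in WT 1 to 3 and 32.5, 39.1 and 36.7 CPM in Abca4KO 1 to 3, so each library matched its label. Defining RPE genes were abundant in both genotypes: Rpe65, the visual cycle isomerase, had 4938 CPM in WT and 4709 in Abca4KO, and Ttr, which encodes transthyretin, 13543 and 14262 CPM. RNA of other cell types was present in every library. The summed level of 12 rod genes was 707 to 1857 CPM in WT and 1072 to 3503 CPM in Abca4KO, highest in Abca4KO 1, and that of 7 melanocyte genes was 662 to 820 and 770 to 1013 CPM. The melanocyte gene Sox10 alone had 240.5 CPM in WT and 235.3 in Abca4KO. The 9 marker lists held 74 tested genes, of which 52 had log2 fold changes above 0 (47.8% of all tested genes did), 17 had an unadjusted p under 0.05 (7.02% of all tested genes) and 0 passed in edgeR's quasi-likelihood test, while 4 passed in DESeq2. No marker was at 0 counts in all 6 libraries. In bulk RNA of this kind, fewer cells of a type and less RNA per cell cannot be told apart.

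Per kilobase of gene model, the 10 genes fell into a well expressed and a weakly expressed set. Otx2 had the highest level, 126.4 ± 15.3 CPM per kilobase in the WT and 110.6 ± 4.08 in the Abca4KO libraries (SD, n = 3 each). Sox9 followed with 49.4 ± 2.22 and 46.96 ± 3.93 CPM per kilobase, then Mitf with 31.3 ± 1.77 and 28.6 ± 1.70, Six3 with 24.7 ± 0.858 and 23.9 ± 1.50, and Lhx2 with 19.3 ± 1.50 and 16.6 ± 0.922 (SD, n = 3 each). Neighbours among these 5 did not overlap in any of the 6 libraries, so Otx2, Sox9, Mitf, Six3 and Lhx2 kept this order in every mouse. Rax, Pax6, Tfap2a and Otx1 came next, with means over all libraries of 2.63, 2.15, 1.88 and 1.53 CPM per kilobase, and overlapped one another. Tfec was the lowest at 0.371 CPM per kilobase, without overlap with Otx1. The levels of Six3 and Otx2 rest on how reads of overlapping genes were assigned, as given below.

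**Figure D1:**
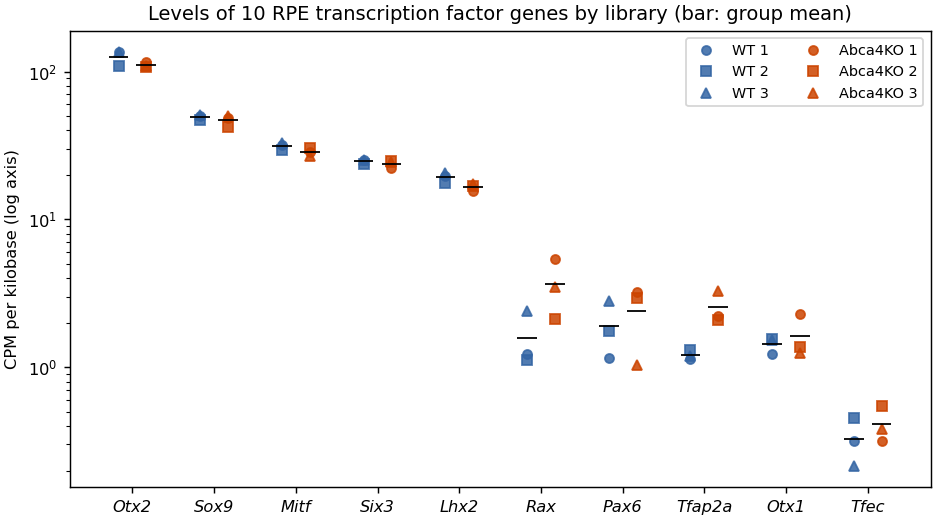
Level of each of the 10 genes in CPM per kilobase on a log axis, with 1 point per library (blue WT, orange Abca4KO) and a bar at each group mean. Otx2, Sox9, Mitf, Six3 and Lhx2 form separate steps from 118.5 down to 17.9 on average, and Tfec lies lowest at 0.371.

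The same division appeared in the spread between mice. For Otx2, Sox9, Mitf, Six3 and Lhx2 the highest library was 1.14 to 1.31 times the lowest. For the other genes it was 1.88 times for Otx1, 2.54 times for Tfec, 2.89 times for Tfap2a, 3.13 times for Pax6 and 4.78 times for Rax. Counting error covers part of this for the sparsest genes: the counting coefficient of variation at the mean count was 16.0% for Tfec and 11.0% for Rax, but 4.58% for Pax6, whose coefficient of variation was 44.1% among WT libraries and 49.7% among Abca4KO libraries.

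None of the 10 genes passed the threshold of an adjusted p under 0.05 between Abca4KO and WT in edgeR's quasi-likelihood test, where 8 of 17340 tested genes (0.0461%) did. Leaving out WT 1 gave 4 such genes, and leaving out Abca4KO 2 or Abca4KO 3 gave 3 each, and no member passed in any fit that left out a library. At an unadjusted p under 0.05 there were 3 members, Tfap2a, Rax and Lhx2, against 7.02% of tested genes. The count of members at that level was 1 to 5 over the 14 other settings tried. The genotypes did not overlap for 2 members, against 12.8% of tested genes: Tfap2a with Abca4KO above WT (5.93% of tested genes) and Lhx2 with Abca4KO below WT (6.82%). Of the 10 log2 fold changes, 5 were positive and 5 negative (47.8% of all tested genes were positive), and the median was 0.07, beside -0.01 over all tested genes.

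**Figure D2:**
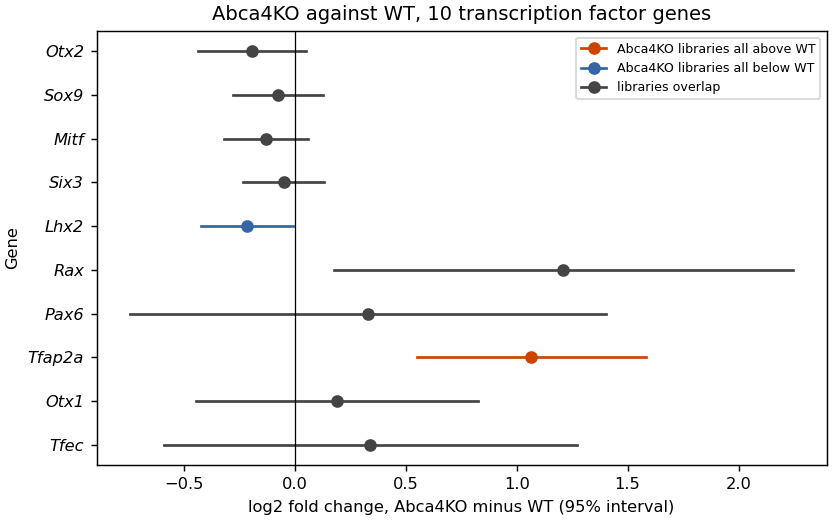
Log2 fold change of Abca4KO over WT for each of the 10 genes, with its 95% interval, ordered by level. The intervals of the 5 well expressed genes lie between -0.44 and 0.13, those of the weakly expressed genes reach from -0.74 to 2.25, and 3 of the 10 intervals (Lhx2, Rax and Tfap2a) do not include 0 before adjustment for the number of genes tested.

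Mitf, the master regulator of pigment cell genes, differed little between the genotypes. Its gene model covers bases 97807052 to 98021349 of chromosome 6, plus strand (mm10). It measured 197, 182 and 204 CPM in WT 1 to 3 and 177, 188 and 167 CPM in Abca4KO 1 to 3. The groups overlapped, with WT 2 below Abca4KO 2. Its log2 fold change was -0.13 (95% interval -0.32 to 0.06, adjusted p = 0.801 in edgeR's quasi-likelihood test), so the interval leaves room for a fall by 0.32 and for a gain of at most 0.06 on the log2 scale. Mitf has several promoters, and counts per gene do not separate the transcripts that start at each of them. The most downstream start in RefSeq belongs to the form known from melanocytes, while RPE uses upstream starts, and the stretch before it is shown because melanocyte RNA was present. Capitals mark TGACGTCA, the palindromic cyclic AMP response element (in 1.79% of all RefSeq promoter windows of GRCm38.p6), and TAATTA, the palindromic core of many homeodomain sites (5.29%).
Mitf, downstream start, chr6:97991583-97991782, plus strand: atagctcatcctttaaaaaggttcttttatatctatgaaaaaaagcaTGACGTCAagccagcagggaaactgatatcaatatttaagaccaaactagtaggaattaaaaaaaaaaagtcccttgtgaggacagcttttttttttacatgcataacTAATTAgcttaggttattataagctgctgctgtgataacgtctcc

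Tfec, a relative of Mitf from the same family, was the weakest of the 10 genes, with 22 to 47 counts per WT library and 35 to 59 per Abca4KO library. It measured 1.78, 2.52 and 1.20 CPM in WT 1 to 3 and 1.77, 3.04 and 2.15 CPM in Abca4KO 1 to 3. WT 2 and Abca4KO 2 were the highest of their groups and the groups overlapped (log2 fold change 0.34, 95% interval -0.59 to 1.27, adjusted p = 0.897 in edgeR's quasi-likelihood test). That log2 fold change was 0.64 without WT 2, 0.12 without WT 3 and 0.10 without Abca4KO 2. Across the 6 libraries Tfec went with macrophage genes: Pearson's r of log2 CPM was 0.99 with Adgre1, which encodes the macrophage surface protein F4/80, 0.98 with Tyrobp, an adaptor of myeloid receptors, and 0.98 with the mean level of the 10 macrophage markers. These are descriptions over 6 libraries that share depth and tissue composition. Summed macrophage markers were 1006 to 1795 CPM in WT and 1539 to 2576 CPM in Abca4KO, and their part in the level of Tfec was not tested. Of the other family members, Tfeb measured 5.08 and Tfe3 4.63 CPM per kilobase over all libraries, both below Mitf (29.96) and above Tfec in every library.

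**Figure D3:**
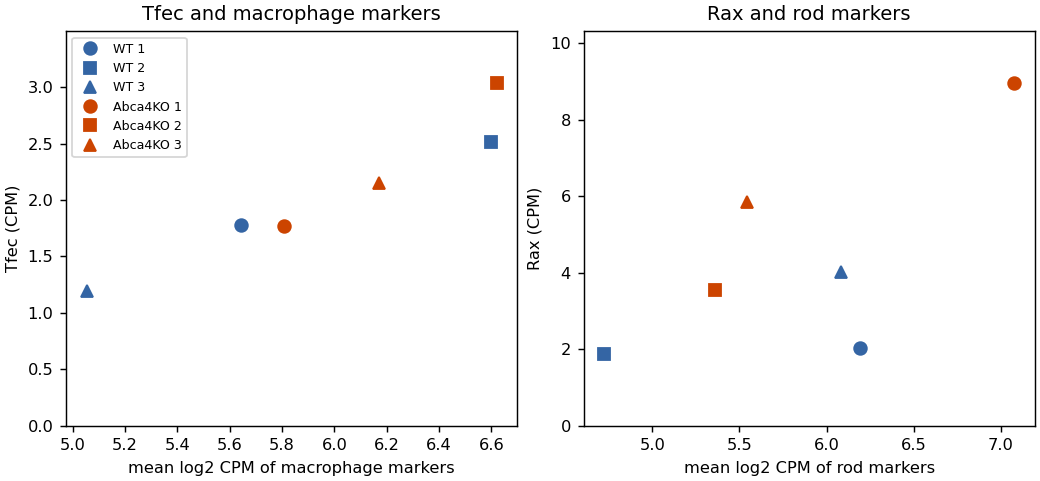
Tfec against the mean log2 CPM of 10 macrophage markers (left) and Rax against that of 12 rod markers (right), 1 point per library, both vertical axes in CPM from 0. Tfec follows the macrophage markers closely (r of log2 values 0.98), whereas Rax is highest in Abca4KO 1, the library with the most rod signal, but scatters otherwise (r 0.63).

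Otx2, which maintains the RPE and also drives photoreceptor fate, lies on chromosome 14 from 48657677 to 48673819 on the minus strand. It measured 568, 459 and 573 CPM in WT 1 to 3 and 487, 456 and 458 CPM in Abca4KO 1 to 3. WT 1 and WT 3 stood above all others, while WT 2 lay among the Abca4KO libraries. On the log2 scale the difference was -0.19 (95% interval -0.44 to 0.05, adjusted p = 0.762 in edgeR's quasi-likelihood test). The gene overlaps the long non-coding Otx2os1 on the opposite strand, which held 2668 counts over the 6 libraries beside 56320 for Otx2 and had a log2 fold change of -0.15 (adjusted p = 0.846). It also overlaps Gm49154 on its own strand, with 237 counts. Its relative Otx1 was 77.2 times lower per kilobase. Otx1 measured 6.64, 8.36 and 8.32 CPM in WT 1 to 3 and 12.5, 7.42 and 6.73 CPM in Abca4KO 1 to 3. Only Abca4KO 1 stood out, and the log2 fold change of 0.19 (adjusted p = 0.921) turned to -0.13 without that library.

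Sox9, an HMG-box activator of visual cycle genes in the RPE, was steady. It lies on chromosome 11 from 112782224 to 112787760 and measured 208, 194 and 211 CPM in WT 1 to 3 and 201, 176 and 206 CPM in Abca4KO 1 to 3, with Abca4KO 2 the lowest library. A log2 fold change of -0.07 was measured (95% interval -0.28 to 0.13, adjusted p = 0.897 in edgeR's quasi-likelihood test). Its closest matches among the listed genes were Stra6, the RPE receptor that takes up retinol, and Gad2, an amacrine gene at under 1 CPM on average in both genotypes (r = 0.96 each over 6 libraries). With marker lists, r was 0.86 for amacrine and ganglion genes, -0.10 for RPE function genes and -0.07 for Muller genes. Without Abca4KO 2 the log2 fold change of Sox9 was -0.0056. The non-coding BC006965, which starts 248 bases from the start of Sox9, held 20 counts. Sox9 is also made by Muller glia, whose summed markers were 1602 to 1737 CPM in WT and 1350 to 1451 CPM in Abca4KO; without Glul, which makes up most of that sum, the other 7 summed to 133, 171 and 233 CPM in WT 1 to 3 and 92.9, 176 and 119 CPM in Abca4KO 1 to 3, and overlapped. The part of Muller RNA in the level of Sox9 was not tested.

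Lhx2, a LIM homeodomain factor of the optic vesicle, was the only one of the 5 well expressed genes whose groups did not overlap. It measured 86.8, 77.3 and 89.9 CPM in WT 1 to 3 and 68.6, 73.7 and 76.5 CPM in Abca4KO 1 to 3. Each Abca4KO value was under each WT value, by a margin of less than 1 CPM between WT 2 and Abca4KO 3. The log2 fold change was -0.22 (SE 0.09, 95% interval -0.42 to -0.01) and did not pass (adjusted p = 0.706 in edgeR's quasi-likelihood test). Lhx2 is used by Muller glia as well. Of their 7 tested markers, 5 had negative log2 fold changes and 2 positive ones (Gpr37 0.12 and Abca8a 0.02), with a median of -0.27. Glul, the glutamine synthetase gene, measured 1483 and 1271 CPM without overlap (log2 fold change -0.22, adjusted p = 0.701 in edgeR's quasi-likelihood test). Sox2 was also lower without overlap (-0.64, adjusted p = 0.738 in the same test), and Slc1a3 and Kcnj10 had log2 fold changes of -0.60 and -0.51. The sum of the 7 markers other than Glul overlapped between the genotypes (values above). The part of Muller RNA in the level of Lhx2 was not tested. Lhx2 (chromosome 2, 38339281 to 38369733) overlaps the antisense Gm27197 and Gm13584, with 104 and 73 counts over the 6 libraries beside 8858.

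Six3, a homeodomain factor of the eye field and forebrain, had the narrowest spread of the 10 genes. It measured 138, 129 and 136 CPM in WT 1 to 3 and 121, 136 and 134 CPM in Abca4KO 1 to 3, with only Abca4KO 1 apart from the rest. The log2 fold change was -0.05 (95% interval -0.23 to 0.13, adjusted p = 0.929 in edgeR's quasi-likelihood test). On chromosome 17, where it spans 85613608 to 85629302, Six3 overlaps the non-coding Six3os1 on the opposite strand. Six3os1 held 19974 counts over the 6 libraries, more than the 14884 of Six3, and had means of 181 CPM in WT and 174 in Abca4KO (log2 fold change -0.06, adjusted p = 0.961). The sources used here do not state whether reads were counted by strand, so the level of Six3 is uncertain. The related Six6 measured 0.312 CPM per kilobase, 77.9 times below Six3.

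Pax6 and Rax varied between mice without following the genotype cleanly. Pax6, the paired-domain factor needed for eye formation, measured 13.4, 20.6 and 32.9 CPM in WT 1 to 3 and 37.8, 34.2 and 12.1 CPM in Abca4KO 1 to 3. The lowest libraries, WT 1 and Abca4KO 3, came from different genotypes, as did the 3 highest. The log2 fold change was 0.33 with an interval of -0.74 to 1.40 (adjusted p = 0.920 in edgeR's quasi-likelihood test), so a change of either sign up to those bounds was not resolved. It was 0.07 without WT 1, 0.73 without WT 3, 0.05 without Abca4KO 1, 0.17 without Abca4KO 2 and 0.69 without Abca4KO 3. Pax6 had no marker list that it followed closely: r was -0.11 with amacrine and ganglion markers, 0.38 with Muller markers and 0.39 with surface epithelium markers over the 6 libraries. Among single listed genes it was most like Fgf9 (r = 0.85), a growth factor gene present at under 1 CPM on average in both genotypes, and Meis1 (r = 0.76), a homeodomain gene. Pax6 spans 105668900 to 105697364 on chromosome 2 and overlaps Pax6os1, which held only 48 counts.

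Rax, an eye-field homeodomain gene kept on in Muller glia, had 35 to 74 counts per WT library and 69 to 177 per Abca4KO library. It measured 2.04, 1.88 and 4.02 CPM in WT 1 to 3 and 8.97, 3.56 and 5.86 CPM in Abca4KO 1 to 3. Abca4KO 1 and Abca4KO 3 stood above all WT libraries, but WT 3 lay above Abca4KO 2. The means differed 2.32-fold (log2 fold change 1.21, SE 0.44, 95% interval 0.17 to 2.25), and the gene did not pass (adjusted p = 0.688 in edgeR's quasi-likelihood test). Its nearest listed genes were Grik1 (r = 0.95), a glutamate receptor gene of bipolar cells, and Six6 (r = 0.94), over 6 libraries. Among the marker lists its r was highest with bipolar markers (0.80). It was 0.66 with melanocyte, 0.63 with rod, 0.58 with amacrine and ganglion and -0.27 with Muller markers. With pigment genes and with RPE function genes r was 0.54 each. Bipolar markers summed to 8.57 to 22.8 CPM in WT and 15.5 to 27.4 CPM in Abca4KO. The rod sums were given above, and the part of such neural RNA in the level of Rax was not tested. Its opposite-strand neighbour Raxos1 held 68 counts beside 495 for Rax.

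Tfap2a, which encodes AP-2 alpha, was the member with the clearest difference in values. It had 107, 119 and 108 counts in WT 1 to 3 and 215, 200 and 279 counts in Abca4KO 1 to 3, which correspond to 5.60, 6.38 and 5.87 CPM and to 10.9, 10.3 and 16.2 CPM. The 3 WT libraries lay close together, and every Abca4KO library was above them, with Abca4KO 3 the highest. The WT mean was 5.95 ± 0.396 CPM and the Abca4KO mean 12.5 ± 3.24 CPM (SD, n = 3 each), a ratio of 2.10. The log2 fold change was 1.07 (SE 0.22, 95% interval 0.55 to 1.58), and the gene ranked 60 of 17340 by p. It did not pass in edgeR's quasi-likelihood test (adjusted p = 0.463), while it did in DESeq2's Wald test (log2 fold change 1.07, adjusted p = 0.0136), which called 114 genes in all. Without WT 2 and Abca4KO 1 together its adjusted p in edgeR was 0.0843. When single libraries were left out, its adjusted p in edgeR was between 0.251 (without WT 2) and 0.976 (without Abca4KO 3). Its log2 fold change in those fits was between 0.83 (without Abca4KO 3) and 1.19 (without Abca4KO 2).

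Tfap2a spans 40715302 to 40738376 on chromosome 13, minus strand, and overlaps the antisense Gm26688 (192 counts beside 1028), Gm47061 (13 counts) and Gm47067 (3 counts), so its count is uncertain to that extent. Mean levels of Gm26688 were 1.39 CPM in WT and 1.98 in Abca4KO. Other cell types that could hold Tfap2a gave mixed values. Surface epithelium markers summed to 140, 579 and 213 CPM in WT 1 to 3, with WT 2 apart, and to 116 to 152 CPM in Abca4KO. Outside WT 2, most of that sum was Perp. Perp measured 135, 137 and 153 CPM in WT 1 to 3 and 125, 102 and 114 CPM in Abca4KO 1 to 3. Amacrine and ganglion markers summed to 308 to 324 CPM in WT and 265 to 322 CPM in Abca4KO. Most of this was Slc6a9, which measured 264, 262 and 279 CPM in WT 1 to 3. In Abca4KO 1 to 3 Slc6a9 measured 248, 211 and 267 CPM. The related Tfap2b, also an amacrine gene, measured 8.63 and 10.4 CPM (log2 fold change 0.27, adjusted p = 0.901). Endothelial markers summed to 307 to 522 CPM in WT and 506 to 776 CPM in Abca4KO, and fibroblast markers, which did not overlap, to 1404 to 1679 and 1713 to 2144 CPM. The listed genes most like Tfap2a over the 6 libraries were Pax3 (r = 0.95), a neural crest factor from the melanocyte list that measured 3.26 and 5.17 CPM, and the endothelial gene Vwf (r = 0.94), at 51.2 and 98.8 CPM. With marker lists, r was 0.86 for endothelial, 0.81 for fibroblast, 0.74 for melanocyte, 0.16 for amacrine and ganglion and -0.48 for surface epithelium markers. For pigment genes it was 0.61 and for RPE function genes 0.58. Log2 fold changes were above 0 in 10 of 10 endothelial, 7 of 7 fibroblast and 5 of 7 melanocyte markers. They were above 0 in 5 of 8 amacrine and ganglion and 1 of 7 surface epithelium markers, beside 47.8% of all tested genes. The part of these cell types in the level of Tfap2a was not tested. Before its more upstream start in RefSeq, shown because this gene had the largest difference relative to its error, the homeodomain core TAATTA (capitals) was present.
Tfap2a, upstream start, chr13:40734921-40735040, minus strand: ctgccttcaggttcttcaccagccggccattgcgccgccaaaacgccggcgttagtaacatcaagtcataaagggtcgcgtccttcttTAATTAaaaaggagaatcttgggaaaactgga

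**Figure D4:**
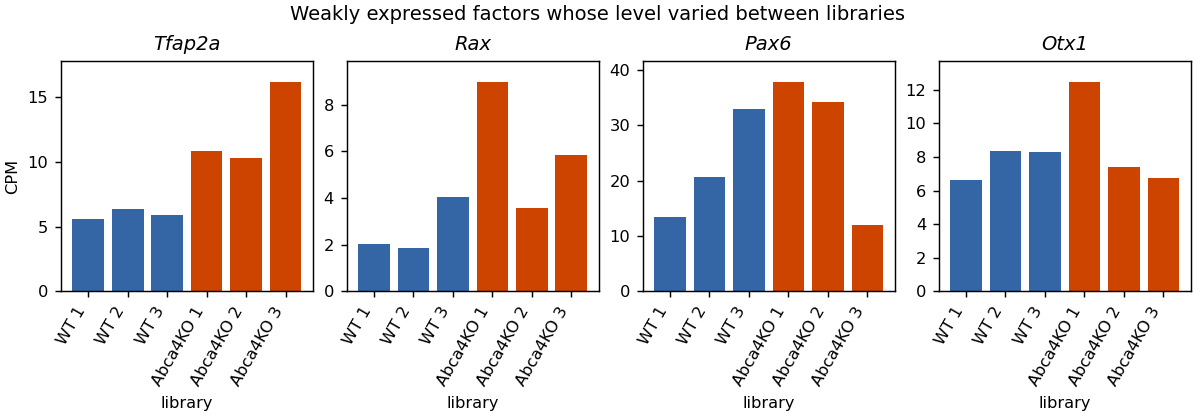
CPM of Tfap2a, Rax, Pax6 and Otx1 in each library (blue WT, orange Abca4KO), with bars from 0 and a scale for each gene. Tfap2a separates the genotypes (5.60 to 6.38 against 10.3 to 16.2 CPM), whereas in Rax, Pax6 and Otx1 bars of the genotypes overlap.

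The other factors of RPE and optic vesicle fate were counted in the same fit. Of 27 listed, 26 were tested, and 12 had a positive and 14 a negative log2 fold change, with a median of -0.08. In edgeR's quasi-likelihood test 0 passed, and 3 had an unadjusted p under 0.05 (7.02% of all tested genes). The genotypes did not overlap for 3 with Abca4KO above WT (5.93% of all tested genes) and for 3 with Abca4KO below WT (6.82%). Hes1, a Notch effector, had the smallest p, with 42.4 CPM in WT and 72.6 CPM in Abca4KO (log2 fold change 0.77, SE 0.12, adjusted p = 0.275). It passed in DESeq2 (adjusted p = 1.37e-04), in limma-voom with sample weights (0.0384), with no filter on low counts (0.0466) and without WT 2 and Abca4KO 1 together (0.0400). Yap1, the Hippo pathway coactivator that favours RPE fate, measured 219.8 and 188.3 CPM (log2 fold change -0.22, adjusted p = 0.616), and its DNA-binding partner Tead1 136.9 and 111.0 CPM (-0.30, adjusted p = 0.639). For both, each Abca4KO value was under each WT value (6.82% of all tested genes). For Tead1 the margin was narrow, with 123.5 CPM in WT 2 and 123.2 CPM in Abca4KO 1. Nr2f1, an orphan nuclear receptor gene, measured 25.4 and 30.3 CPM (adjusted p = 0.712). Among the 13 listed signals of RPE fate, 9 were tested, 1 had an unadjusted p under 0.05 (7.02% of all tested genes) and 0 passed in edgeR or in DESeq2. Bmp4, a ligand that promotes the RPE, measured 273.1 and 305.3 CPM (adjusted p = 0.804) and Wnt2b 4.49 and 2.92 CPM (0.759). The Hedgehog ligand Ihh measured 3.42 and 4.64 CPM (0.862) and the secreted Dkk3 381.0 and 454.7 CPM (0.706). Bmp4 and Dkk3 did not overlap between the genotypes, with Abca4KO above WT (5.93% of all tested genes).

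Genes that these factors are known to switch on were then examined. Of 13 pigment genes, all tested, 12 had log2 fold changes above 0 and the median was 0.38, beside -0.01 over all genes, and 0 passed in edgeR's quasi-likelihood test. At an unadjusted p under 0.05 there were 4, all higher in Abca4KO (7.02% of tested genes in either direction). In 4 the Abca4KO libraries all lay above WT (5.93% of tested genes). Gpnmb, a melanosome glycoprotein gene also strong in macrophages, measured 1242 and 2356 CPM (log2 fold change 0.92, SE 0.19, adjusted p = 0.453). Mlana, a melanosome gene, measured 192.1 and 308.0 CPM (0.68, adjusted p = 0.547), Pmel, the melanosome fibril gene, 922 and 1452 CPM (0.65, adjusted p = 0.679) and Dct, dopachrome tautomerase, 2246 and 3073 CPM (0.45, adjusted p = 0.691). Gpnmb and Mlana passed in DESeq2 (adjusted p = 4.88e-05 and 0.0106) and without WT 2 and Abca4KO 1 together (0.0266 and 0.0252), where Pmel did as well (0.0383). Tyr, the rate-limiting tyrosinase gene, was the 1 with a negative value (506.6 and 487.9 CPM, log2 fold change -0.05, adjusted p = 0.969). The summed pigment genes were 8420, 6205 and 9229 CPM in WT 1 to 3 and 9367, 12516 and 11648 CPM in Abca4KO 1 to 3, lowest in WT 2. Over the same libraries Mitf had r = -0.13 with the mean pigment level. Melanocyte markers without Mlana, which is in both lists, summed to 580, 496 and 617 CPM in WT 1 to 3 and 536, 650 and 659 CPM in Abca4KO 1 to 3, and overlapped. Of the 7 melanocyte markers with Mlana included, 5 had log2 fold changes above 0 and 2 below, and the median was 0.36. Pax3 was higher in all Abca4KO libraries (3.26 and 5.17 CPM, log2 fold change 0.66, adjusted p = 0.691 in edgeR's quasi-likelihood test). Kit, a receptor gene, was lower in all Abca4KO libraries (66.4 and 49.0 CPM, log2 fold change -0.44, adjusted p = 0.489 in the same test). The part of melanocyte RNA in the pigment genes was not tested.

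**Figure D5:**
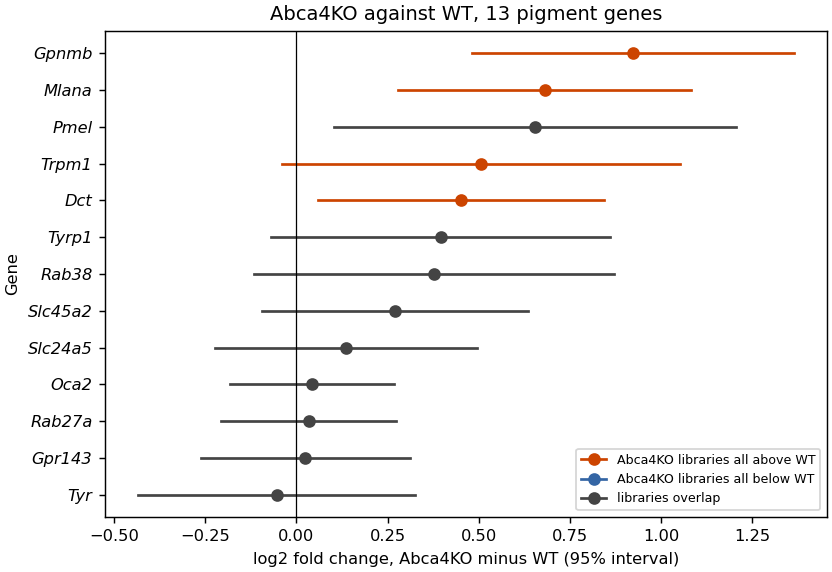
Log2 fold change of Abca4KO over WT for 13 pigment genes with 95% intervals, orange where all Abca4KO libraries lay above all WT libraries. Of the 13 estimates, 12 lie above 0, from 0.92 for Gpnmb downwards, and Tyr lies at -0.05.

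Of 10 genes of RPE function, 6 had log2 fold changes above 0 and 4 below, and the median was 0.09. Of these genes, 2 had an unadjusted p under 0.05 (7.02% of all tested genes), and 0 passed in edgeR's quasi-likelihood test. Kcnj13, a potassium channel gene, measured 242.9 and 315.9 CPM (log2 fold change 0.38, adjusted p = 0.486), and passed in DESeq2 (adjusted p = 0.0154). The retinyl ester synthase gene Lrat measured 1794 and 1387 CPM (-0.37, adjusted p = 0.669), Rdh5, a retinol dehydrogenase gene, 2083 and 2403 CPM (0.21, adjusted p = 0.727) and Serpinf1, which encodes PEDF, 116.3 and 141.0 CPM (0.28, adjusted p = 0.768).

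The promoters of these genes are shown because they carry the letters that MITF and OTX2 are known to bind. CATGTG, the core of the M-box read by MITF and its family, was searched on both strands in RefSeq windows of GRCm38.p6 from 250 bases before to 50 after a start. It was found in 7 of 10 windows of the 8 pigment genes with a window and in 5 of 12 windows of 9 RPE function genes, against 14.2% of 32851 windows in all. TAATCC, the core read by OTX proteins, was found in 3 of 10 and 3 of 12 windows, against 7.06% of all. In the stretches printed no match overlaps another, and a match is a description of letters, not of binding. Outside the stretches printed, windows of Rpe65 and Rgr also held CATGTG and a window of Tyrp1 also held TAATCC, each on either strand. In the stretches below, all taken from before the start and written in the direction of the gene, capitals mark CATGTG in Tyr, Tyrp1 and Dct and TAATCC or its reverse complement GGATTA in Dct, Rpe65, Best1 and Rgr.
Tyr, chr7:87493513-87493632, minus strand: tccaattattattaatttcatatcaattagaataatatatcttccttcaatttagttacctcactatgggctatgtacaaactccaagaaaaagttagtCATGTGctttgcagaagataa
Tyrp1, chr4:80834093-80834212, plus strand: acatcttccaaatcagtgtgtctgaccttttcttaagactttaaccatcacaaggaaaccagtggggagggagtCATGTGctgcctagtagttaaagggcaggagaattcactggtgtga
Dct, chr14:118052317-118052436, minus strand: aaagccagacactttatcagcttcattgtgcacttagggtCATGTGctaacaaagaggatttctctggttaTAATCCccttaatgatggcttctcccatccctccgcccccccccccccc
Rpe65, chr3:159599061-159599180, plus strand: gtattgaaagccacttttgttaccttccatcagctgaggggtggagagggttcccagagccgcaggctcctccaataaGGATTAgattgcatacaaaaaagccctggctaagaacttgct
Best1, chr19:10001764-10001883, minus strand: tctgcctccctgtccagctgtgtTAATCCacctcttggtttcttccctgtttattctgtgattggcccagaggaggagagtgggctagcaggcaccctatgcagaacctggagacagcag
Rgr, chr14:37049105-37049224, minus strand: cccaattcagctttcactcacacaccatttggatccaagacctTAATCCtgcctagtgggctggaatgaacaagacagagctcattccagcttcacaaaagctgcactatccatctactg
The M-box of Tyr begins 21 bases before its start and that of Tyrp1 46 bases before, and in Dct the M-box and the OTX letters begin 150 and 119 bases before the start. Tyrp1, a melanosomal enzyme gene, measured 1461 and 1923 CPM (log2 fold change 0.40, adjusted p = 0.746), so that of these 3 enzymes with an M-box Dct and Tyrp1 had higher means in Abca4KO and Tyr a slightly lower one, none past the threshold. Of the genes shown with OTX letters, Best1, a chloride channel gene, measured 5.19 and 6.83 CPM (0.39, adjusted p = 0.856) and Rgr, a retinal G protein-coupled opsin gene, 10302 and 11146 CPM (0.11, adjusted p = 0.891), while Rpe65 had a log2 fold change of -0.07 (adjusted p = 0.936).

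Likeness between members over the 6 libraries differed from pair to pair, also within the well expressed set. Pearson's r of log2 CPM was 0.79 between Mitf and Otx2, 0.80 between Otx2 and Lhx2, 0.77 between Lhx2 and Six3 and 0.73 between Mitf and Lhx2, but 0.12 between Mitf and Sox9, 0.04 between Sox9 and Six3, 0.40 between Otx2 and Six3 and 0.49 between Mitf and Six3. Of the pairs with a weakly expressed gene, Otx1 and Six3 had the most negative r (-0.90), with Abca4KO 1 highest for Otx1 and lowest for Six3. Mitf with Tfap2a (-0.85), Sox9 with Tfec (-0.85) and Otx2 with Tfec (-0.83) came close. Rax with Tfap2a (0.72) and Otx1 with Pax6 (0.71) had the most positive values of such pairs. The listed gene most like both Otx2 (r = 0.99) and Mitf (r = 0.83) was Nr2e1, a nuclear receptor gene of neural progenitors, at 77.2 CPM in WT and 65.97 CPM in Abca4KO (log2 fold change -0.23, adjusted p = 0.716). Mitf went against the mean endothelial marker level (r = -0.98) and Otx2 against macrophage and endothelial markers (-0.89 and -0.87). Lhx2 was most like Csf1r (r = 0.91), a macrophage receptor gene, although its r with the macrophage markers as a list was -0.62. The other matches by the same rule were Zic1 for Mitf (r = 0.78), Tead1 for Otx2 (0.90), Lrat for Lhx2 (0.82), Vax1 and Sox10 for Six3 (0.84 and 0.75), and Fgf9 and Six6 for Otx1 (0.71 and 0.70). With 6 points that share library and tissue composition, these values order the genes by likeness and carry no test.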

How the data were processed

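RNA-seq of RPE from 3 WT and 3 Abca4KO mice was used. The authors deposited raw read counts per Ensembl gene, not normalized, and a length per gene model. The submitters' processing notes name STAR, HTSeq and mm10 with no version, and the labels' protocols the NEBNext Ultra RNA kit. Annotation release and strand setting are not given in the sources used here. Library pairs all differed beyond counting noise (chi-square per degree of freedom at least 12.6).

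Genes were filtered with filterByExpr (minimum count 10) and tested with edgeR 4.0.16 (R 4.3.3), TMM scaling and the 2-sided quasi-likelihood test over all 6 libraries without covariates. P-values were adjusted by Benjamini-Hochberg over all genes, with a threshold of 0.05. Fold changes are Abca4KO minus WT (log2). SEs were derived from the F statistic (fold change over root F), and 95% intervals use its t distribution. CPM uses TMM-scaled totals, log2 CPM a prior count of 1. A count of 3 equals 0.152 to 0.174 CPM, which covers counting error only. The test was tried on simulated data.

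The members, 13 gene lists and settings were chosen with earlier results of these data known. Names were drawn from the 10 members, Abca4, genes overlapping a member or starting within 5000 bases of its start, up to 4 genes per list with the smallest p, and the 2 listed genes most like each member. Rpe65, Ttr, Rgr, Tyr, Tyrp1, Best1, Sox10, Nr2e1, Gpr37, Abca8a and family relatives outside this rule were chosen after their values were seen. Alternatives were RLE size factors, other filters, DESeq2 1.42.0, limma 3.58.1 (voom with sample weights), a replicate block, a rod marker covariate and fits without libraries. RefSeq promoter windows (GRCm38.p6) matched 7 of 10 members.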

Additional observations from a re-analysis of the deposited data

How the results depend on the processing

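No member passed the threshold in 13 of the 14 other settings; with DESeq2 1 did, Tfap2a (log2 fold change 1.07). The log2 fold changes of Mitf, Otx2, Sox9, Lhx2, Rax, Tfec and Tfap2a kept their sign in all 14. When single libraries were left out, the ranges were 0.83 to 1.65 for Rax, 0.83 to 1.19 for Tfap2a and 0.10 to 0.64 for Tfec. They were -0.29 to -0.14 for Otx2, -0.17 to -0.088 for Mitf, -0.28 to -0.17 for Lhx2 and -0.12 to -0.0056 for Sox9. That of Otx1 was -0.13 to 0.36 when single libraries were left out, negative only without Abca4KO 1, and -0.092 without WT 2 and Abca4KO 1 together. That of Six3 was -0.080 to 0.0013 when single libraries were left out, positive only without Abca4KO 1. That of Pax6 was 0.05 to 0.73 when single libraries were left out and -0.0095 without WT 2 and Abca4KO 1 together.

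The count of genes past the threshold, 8, was 19 with no filter, 114 with DESeq2, 31 with limma-voom, 22 with the rod marker covariate, 190 without WT 2 and Abca4KO 1 together and 3 to 11 when single libraries were left out (4 without WT 1, 3 without Abca4KO 2 and 3 without Abca4KO 3). Among listed genes, of which 0 passed, the count was 1 with no filter, 7 with DESeq2, 1 with limma-voom, 2 with the covariate and 12 without WT 2 and Abca4KO 1 together. The cause was not tested. With the replicate number as a block 9 genes passed, 0 of them members or listed genes. Deviations of same-numbered libraries correlated at 0.17, 0.34 and -0.08, and 3 of 6 libraries correlated best with their own number. These values cannot decide whether the numbers pair the mice, and the labels call them only biological replicates.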
